A study of Rattus norvegicus with 62 samples.

Results

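Genes for the nuclear-encoded subunits of oxidative phosphorylation were followed across 3 brain regions and 3 treatments of the rat. Members were the probe sets whose only gene symbol in the platform annotation belongs to the complex I families Ndufa, Ndufb, Ndufc, Ndufs and Ndufv, is one of the succinate dehydrogenase genes Sdha to Sdhd of complex II, is Cyc1 or begins with Uqcr (complex III), begins with Cox4 to Cox8 (complex IV), or begins with Atp5 (complex V, the ATP synthase). Pseudogene symbols and the Ndufaf assembly factors were left out. This gave 80 genes with 89 probe sets, out of 14217 genes named by a probe set of their own and 31042 probe sets that are not controls. Complex I had 36 genes, complex II 4, complex III 8, complex IV 16 and complex V 16. Genes were placed by symbol, so Ndufa4, which is associated with complex IV, and its relative Ndufa4l2 count among the accessory genes of complex I. A further 6 probe sets that share their symbol with another gene, among them those of Atp5mc1, Atp5mc2 and Cox7a2, were not used.

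The data are 62 single-colour arrays. Total RNA had been taken from 3 regions of the brain of male Wistar rats, namely the brainstem, the hippocampus and the frontal cortex. Rats had received phenytoin at 75 mg per kg, levetiracetam at 150 mg per kg, or control solution, each through a gastric tube 2 times a day for 90 days. Each of the 9 groups of 1 region and 1 treatment had 7 numbered rats, except control frontal cortex with 6, since its number 4 is not analysed here. No gene was altered in any group, both drugs are antiepileptic agents, and the sources used here name neither the age of the rats nor a seizure model. For rats 1 and 2 of the levetiracetam brainstem group the labels mention phenytoin as well. Whether the regions of a treatment came from the same rats is not stated, and cortex samples carry another style of title, so region and array set cannot be told apart. The labels number the rats of a group but do not say how else they differ, so the p-values refer to the spread among these samples, which may be technical.

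Oxidative phosphorylation transfers electrons from NADH (complex I) or succinate (complex II) through complex III and cytochrome c to oxygen at complex IV, and the ATP synthase uses the resulting proton gradient to make ATP. Its subunits are encoded in both the nuclear and the mitochondrial genome, and only the nuclear ones are described here, most of them present in every cell and a few as tissue-specific isoforms. Neurons depend on this pathway for most of the ATP that ion pumping and synaptic transmission consume.

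Of the 80 genes, 76 were bright enough to be tested across all 9 groups, 77 within brainstem, 75 within hippocampus and 76 within frontal cortex. Cox4i2, Cox6b2 and Cox7b2, isoforms known from lung or testis, lay among the dimmest 40% of probe sets in every fit, and Cox8b, a muscle isoform, passed in the brainstem alone. Most tested members gave strong signals, with 70 of 76 above the 75th percentile of mean signal. Below it lay Cox6a2, Ndufa4l2, Cox7a1, Cox5a, Ndufs4 and Ndufb8, at the 9.5th, 17.6th, 19.3rd, 54.5th, 56.8th and 68.7th percentile. The spread between rats of a group was low, with a median SD of 0.147 on the log2 scale against 0.227 over all 18625 tested probe sets. Values below are log2(intensity + 16) after quantile normalization, differences are on that scale and so understate the change of dim genes, and a call is an adjusted p under 0.05 in limma with Benjamini-Hochberg adjustment over all tested probe sets. Where a gene had several probe sets, the brightest tested one stands for it.

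Region labels were checked against marker genes. All 4 tested hippocampal markers were higher in hippocampus than in brainstem and in frontal cortex of control rats, and 6 of 7 cortical markers were lower in brainstem than in cortex. Of the 8 brainstem markers only 1 was bright enough to test, and it was 2.92 higher in brainstem than in hippocampus. A pair of arrays stood apart with an estimated weight under 1 in 3. In phenytoin hippocampus 7 the summed intensity of striatal markers was 7026 against 1042 to 1223 in the other 6 arrays, and that of oligodendrocyte markers 24376 against 11615 to 15123. In levetiracetam frontal cortex 3 the endothelial and blood markers summed to 6786 against 2190 to 4257. Where a group compared holds one of these arrays and leaving it out changed the count of called members, both counts are given. Just above that weight were control hippocampus 1 (0.342), control frontal cortex 7 (0.343) and phenytoin brainstem 1 (0.353), which were kept. On phenytoin hippocampus 4, which lacks 4799 probe sets, 3 dim member probe sets are missing.

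Proximal promoters of 72 of the 80 genes were found in RefSeq (build GRCr8, from 250 bases before to 50 after the start of the gene). They were searched on both strands for 4 motifs of factors known to act on respiratory genes. The NRF1 motif, GCGCA then any base then GCGC, was present in 13 of 72 member promoters (18.1%, against 6.1% of all protein-coding genes), the YY1 motif AAGATGGCG in 10 (13.9% against 2.3%), the ETS motif ACTTCCGG in 8 (11.1% against 5.0%) and the estrogen-related receptor motif TCAAGGTCA in 2 (2.8% against 0.4%). The general promoter motifs were near the share of protein-coding genes, with GGGCGG (SP1) in 43.1% against 43.1%, CCAAT in 34.7% against 38.4% and TATAAA in 11.1% against 13.1%. Median GC content was 56.0% in members and 55.3% in the comparison promoters. NRF1 matches were spread over complex I (6 of 34), complex II (1 of 4), complex III (1 of 6) and complex V (5 of 15), and 0 of 13 complex IV promoters held the NRF1 or the YY1 letters. A match is a stretch of letters and was not tested for binding.

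The following promoters belong to genes described below: Uqcrc1 and Sdha, which were low in hippocampus, Ndufs7 and Atp5po, which were lower under phenytoin than under levetiracetam in cortex, Uqcrh, which was higher under levetiracetam in brainstem, and Cox6a2, which gave the largest regional differences. Each is written 5′ to 3′ on the gene's own strand, with matches to the NRF1, ETS, YY1 and estrogen-related receptor motifs in capitals. Uqcrc1 lies at chr8:118467973-118468272 on the plus strand, Sdha at chr1:30764303-30764602 on the plus strand, Ndufs7 at chr7:10110449-10110748 on the minus strand, Atp5po at chr11:44657434-44657733 on the minus strand, Uqcrh at chr5:134790833-134791132 on the minus strand and Cox6a2 at chr1:192219667-192219966 on the minus strand.
Uqcrc1: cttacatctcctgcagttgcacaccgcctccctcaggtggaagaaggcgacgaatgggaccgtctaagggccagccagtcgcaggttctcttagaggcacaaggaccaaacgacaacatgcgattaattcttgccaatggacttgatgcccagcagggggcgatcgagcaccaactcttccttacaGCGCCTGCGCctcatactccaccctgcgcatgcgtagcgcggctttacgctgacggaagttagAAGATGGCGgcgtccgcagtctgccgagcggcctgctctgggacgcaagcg
Sdha: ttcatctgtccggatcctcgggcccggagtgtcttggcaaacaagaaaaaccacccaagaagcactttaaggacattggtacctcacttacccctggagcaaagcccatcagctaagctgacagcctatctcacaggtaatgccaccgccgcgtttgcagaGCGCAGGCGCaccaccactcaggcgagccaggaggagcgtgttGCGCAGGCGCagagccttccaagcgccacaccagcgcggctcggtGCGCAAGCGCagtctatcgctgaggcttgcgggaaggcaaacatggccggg
Ndufs7: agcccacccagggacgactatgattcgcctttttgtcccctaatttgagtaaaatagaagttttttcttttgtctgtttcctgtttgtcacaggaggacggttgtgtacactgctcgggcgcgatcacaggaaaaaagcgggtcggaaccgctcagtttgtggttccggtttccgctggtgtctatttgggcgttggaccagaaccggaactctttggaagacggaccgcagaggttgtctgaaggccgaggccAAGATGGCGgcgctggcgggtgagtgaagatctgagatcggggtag
Atp5po: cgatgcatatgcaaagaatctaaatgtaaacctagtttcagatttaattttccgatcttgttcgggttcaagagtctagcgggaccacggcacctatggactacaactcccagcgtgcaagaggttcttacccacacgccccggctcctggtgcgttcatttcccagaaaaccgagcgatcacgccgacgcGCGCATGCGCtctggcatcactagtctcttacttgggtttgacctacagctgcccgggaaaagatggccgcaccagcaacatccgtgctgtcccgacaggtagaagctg
Uqcrh: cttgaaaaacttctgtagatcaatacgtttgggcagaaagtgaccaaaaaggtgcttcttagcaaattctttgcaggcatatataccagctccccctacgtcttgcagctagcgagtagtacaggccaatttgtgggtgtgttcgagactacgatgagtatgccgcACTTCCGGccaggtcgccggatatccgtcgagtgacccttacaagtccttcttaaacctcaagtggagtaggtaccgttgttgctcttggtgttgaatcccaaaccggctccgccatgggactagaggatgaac
Cox6a2: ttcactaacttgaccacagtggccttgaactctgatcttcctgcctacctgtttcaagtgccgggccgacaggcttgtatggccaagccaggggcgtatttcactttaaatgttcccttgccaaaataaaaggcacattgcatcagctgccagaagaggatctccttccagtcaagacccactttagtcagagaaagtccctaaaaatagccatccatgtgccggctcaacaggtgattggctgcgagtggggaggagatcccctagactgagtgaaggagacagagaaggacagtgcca
Sdha held 3 NRF1 matches, the last of them next to the start. Uqcrc1 held 1 NRF1 match and a YY1 match at the start, Ndufs7 a YY1 match just after the start, Atp5po a palindromic NRF1 match and Uqcrh an ETS match. Cox6a2 held none of the 4 motifs in this window. The same was true of the promoters of Sdhb, Sdhc, Cox5a and Atp5f1d, which are also described below but not printed.

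Hippocampus had the lowest level of most members. In control rats the group mean was lowest in hippocampus for 59 of the 76 genes, lowest in frontal cortex for 12 and lowest in brainstem for 5, whereas over all tested probe sets hippocampus was lowest for 32.9%. The count was 62 in phenytoin rats (33% of all probe sets) and 62 in levetiracetam rats (32.6%), and 51 genes had their lowest mean in hippocampus under all 3 treatments. By complex, hippocampus was lowest in control rats for 29 of 36 genes of complex I, 3 of 4 of complex II, 7 of 8 of complex III, 8 of 12 of complex IV and 12 of 16 of complex V. In bulk tissue, fewer cells of a type and less RNA per cell cannot be told apart.

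Taken array by array, with each gene centred on its mean over all arrays, the median over the 76 members lay between 0.013 and 0.17 in the 7 control brainstem arrays, between -0.279 and -0.11 in the 7 control hippocampus arrays and between -0.059 and 0.254 in the 6 control cortex arrays. Brainstem and hippocampus did not overlap, and neither did hippocampus and cortex, while brainstem and cortex did. Complex II showed the widest gap, from a median of 0.172 over control brainstem arrays to -0.271 over control hippocampus arrays, and complex IV the narrowest, from 0.038 to -0.079. In phenytoin rats the hippocampus ran from -0.355 to -0.048, the highest of these being array 7, and in levetiracetam rats from -0.184 to -0.141.

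**Figure D1:**
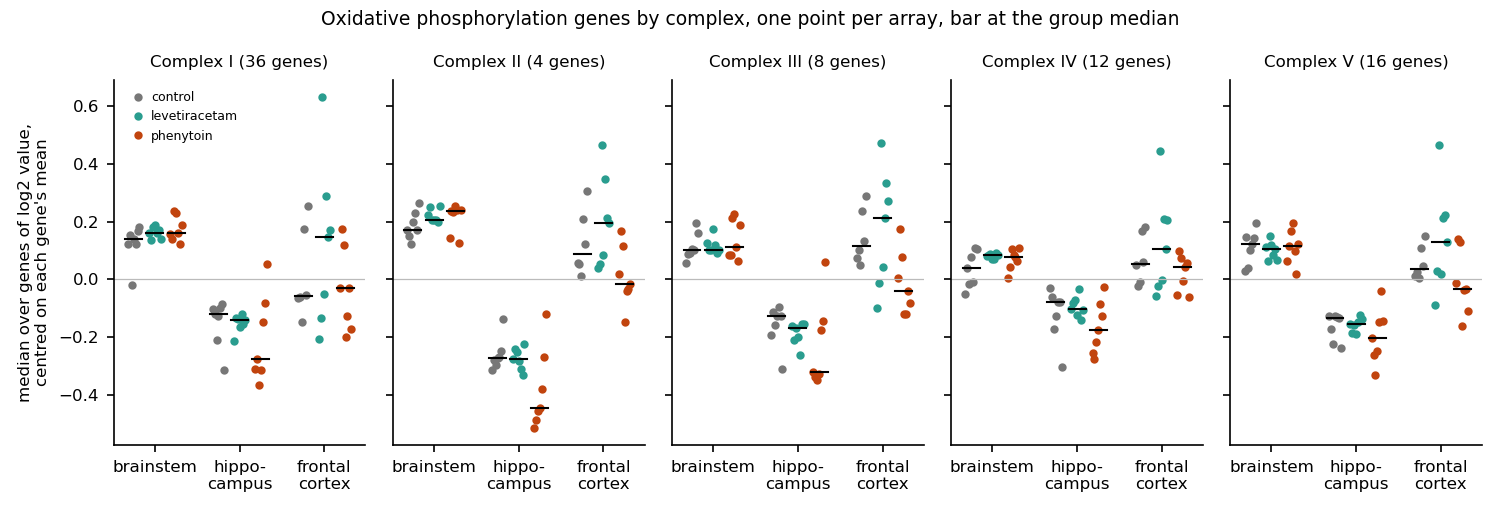
Median over the genes of each respiratory complex of the log2 value centred on each gene's mean (vertical axis), by region and treatment (horizontal axis, colours); each point is 1 array and each bar the group median. All hippocampus groups lie below the brainstem groups for complex II, where control medians are 0.172 and -0.271, and 1 levetiracetam cortex array stands above the rest of its group, at 0.517 over all members.

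In control rats 47 of 76 members were called higher and 1 lower in brainstem than in hippocampus, against 29.5% and 26.9% of all tested probe sets, with a median difference of 0.25 for members and 0.01 for all. The calls covered 24 of 36 genes of complex I, 3 of 4 of complex II, 5 of 8 of complex III, 5 of 12 of complex IV and 10 of 16 of complex V. All 6 catalytic-core genes of complex I were called, with a median difference of 0.41, beside 18 of 30 accessory genes with a median of 0.25. For 28 members every control brainstem array exceeded every control hippocampus array, a separation that 16.1% of all probe sets showed, and Uqcr11 alone was separated the other way (14.8%). The same contrast called 69 members higher and 2 lower in phenytoin rats (29.4% and 25.7% of all probe sets) and 53 higher and 1 lower in levetiracetam rats (28.8% and 25.9%), and 42 genes were called higher under all 3 treatments. Without the pair of low-weight arrays the counts were 68 higher and 2 lower in phenytoin rats and 58 and 1 in levetiracetam rats. These rats are other samples, but the 9 groups share 1 fit.

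Uqcrc1 (probe set 1388301_at), a core subunit of complex III, ran from 10.94 through a median of 11.16 to 11.42 in control brainstem, from 10.41 through 10.50 to 10.57 in control hippocampus and from 10.89 through 11.01 to 11.12 in control cortex. The hippocampus lay below both other regions with no overlap. Brainstem exceeded hippocampus by 0.71 (SE 0.076, adjusted p 2.87e-12, 1.63-fold) and the difference between hippocampus and cortex was -0.51 (SE 0.0791, adjusted p 1.84e-07). The brainstem difference was 0.70 in levetiracetam and 0.69 in phenytoin rats. The hippocampus-to-cortex difference was -0.61 in levetiracetam rats and -0.19 in phenytoin rats.

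Complex II showed the same order in 3 of its 4 genes. Sdhb (1372123_at), the iron-sulfur subunit, ran from 10.80 through 10.91 to 11.09 in control brainstem, from 10.15 through 10.36 to 10.42 in hippocampus and from 10.66 through 10.86 to 11.22 in cortex. Every hippocampal array was below every array of the other regions, and brainstem and cortex overlapped, with a difference of 0.04 (SE 0.0827, adjusted p 0.672). Sdhb was 0.60 higher in brainstem than in hippocampus (SE 0.0794, adjusted p 1.62e-09), Sdhc, a membrane anchor, 0.51 higher (SE 0.0839, adjusted p 4.5e-07), and Sdha, the flavoprotein, 0.45 higher (SE 0.0521, adjusted p 2.67e-11). Sdhd, the other membrane anchor, differed by -0.00 (SE 0.07, adjusted p 0.995) on its brighter probe set. That probe set was 0.43 higher in brainstem in phenytoin rats (adjusted p 3.32e-07) and 0.30 higher in levetiracetam rats (adjusted p 0.000194).

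In complex I the largest brainstem excess over hippocampus was in Ndufa3, an accessory subunit, at 0.71 (SE 0.121, adjusted p 9.22e-07). Its hippocampal arrays ran from 9.53 through 10.29 to 10.58 and its brainstem arrays from 10.76 through 11.01 to 11.06. The core subunit Ndufs7, which carries an iron-sulfur cluster, was 0.63 higher in brainstem. In the ATP synthase Atp5f1a, the alpha subunit, and Atp5f1d, the delta subunit in the central stalk, were 0.44 and 0.38 higher. In complex IV the called genes with the largest excess were Cox6a2, at 1.35, and Cox7a1, at 0.74 (SE 0.167, adjusted p 0.000129), both known as heart and skeletal muscle isoforms.

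**Figure D2:**
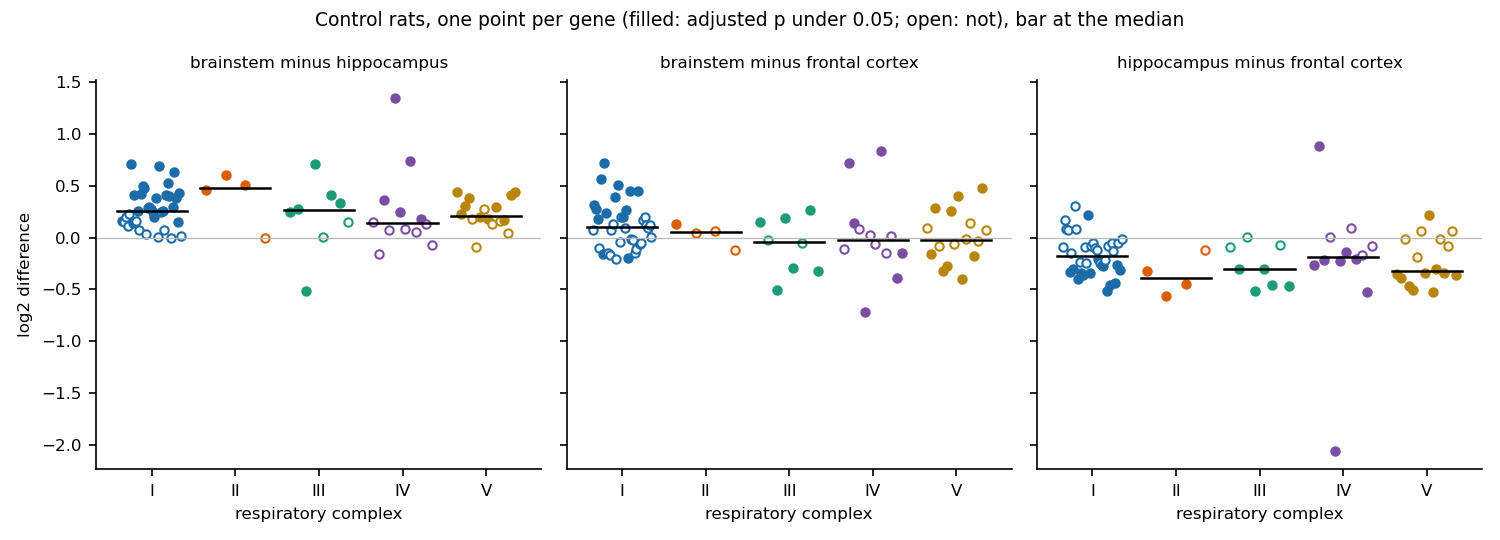
Log2 difference between regions of control rats (vertical axis) for each gene, by respiratory complex (horizontal axis); filled points passed the test, open points did not, and bars are medians. Brainstem minus hippocampus lies mostly above 0 (median 0.25), hippocampus minus frontal cortex mostly below 0 (median -0.22), and brainstem minus frontal cortex on both sides (median 0.05).

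Between hippocampus and frontal cortex of control rats 3 members were called higher and 37 lower in hippocampus, against 21.6% and 24.4% of all probe sets, with medians of -0.22 for members and -0.04 for all. The lower calls comprised 13 of 36 genes of complex I, 3 of 4 of complex II, 5 of 8 of complex III, 7 of 12 of complex IV and 9 of 16 of complex V. For 23 members every hippocampal array lay below every cortical one, against 10.1% of all probe sets, and Cox5a alone was separated the other way (9.89%). In phenytoin rats 3 genes were called higher and 38 lower (20.2% and 23.1% of all probe sets), in levetiracetam rats 1 higher and 51 lower (24.5% and 28.5%), and 27 genes were lower under all 3 treatments. Without the low-weight arrays the counts were 3 and 45 in phenytoin rats and 4 and 46 in levetiracetam rats. After Cox6a2, the largest decreases were those of Sdhb, at -0.56 (SE 0.0827, adjusted p 7.19e-08), of Atp5mg, the g subunit of the ATP synthase membrane domain, at -0.53 (SE 0.0909, adjusted p 2.12e-06), and of Cox7c, a small complex IV subunit, at -0.52 (SE 0.0763, adjusted p 5.95e-08). The genes called higher in hippocampus were Cox5a, Ndufb10, at 0.22 (adjusted p 0.0123), and Atp5mf, at 0.22 (adjusted p 0.00199). Spike-in controls of the arrays, on the log2 scale before normalization, averaged 8 in control cortex, 9.03 in control hippocampus and 8.75 in control brainstem. The part of this in the regional differences was not tested.

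Brainstem and frontal cortex differed in both directions. In control rats 23 members were called higher and 13 lower in brainstem, against 29.7% and 29.1% of all probe sets, with a median of 0.05, so the share called higher was near the background and the share called lower was below it. The median over all probe sets was -0.002. On the values as deposited, without quantile normalization, the split was 9 higher and 19 lower, and the shares of all probe sets called there are not given here. The median on those values was -0.11 for members and 0.08 for all probe sets. With quantile normalization the split was 39 higher and 6 lower in phenytoin rats (28.8% and 29.2% of all probe sets) and 20 higher and 18 lower in levetiracetam rats (31.2% and 31.4%), or 40 and 7, and 27 and 14, without the low-weight arrays. Across the 3 treatments 17 genes were called higher each time and 4 lower each time, the latter being Cox7c, Cox8a, Uqcr11 and Uqcrc2. In control rats complex I had 12 genes higher and 2 lower, complex II 1 and 0, complexes III and IV 3 and 3 each, and complex V 4 and 5. Non-overlapping groups were found for 9 higher and 4 lower members, against 15.9% and 16.2% of all probe sets. Besides Cox7a1 and Cox5a, the largest increases in brainstem were those of Ndufa3, at 0.56 (SE 0.126, adjusted p 0.000113), and Ndufa4l2. The largest decreases were those of Cox6a2, Uqcr11, Atp5mg, at -0.40 (SE 0.0909, adjusted p 0.000133), and Cox7c, at -0.39 (SE 0.0763, adjusted p 1.38e-05). Ndufa4l2, a relative of the complex IV-associated subunit Ndufa4, was 0.71 higher (SE 0.169, adjusted p 0.000228), with control brainstem arrays from 6.13 through 6.28 to 6.75 and control cortex arrays from 5.46 through 5.63 to 5.90.

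Uqcr11 and Cox5a departed from the common order, and Cox6a2 followed it with the largest differences. Uqcr11 (1375197_at), a small subunit of complex III, was the only member called lower in brainstem than in hippocampus in all 3 treatments. Its control values ran from 10.90 through 11.14 to 11.24 in brainstem, from 11.53 through 11.58 to 11.71 in hippocampus and from 11.48 through 11.55 to 11.84 in cortex. Brainstem lay below both regions with no overlap, with a difference of -0.51 in each case (SE 0.0668, adjusted p 1.28e-09 against hippocampus, and SE 0.0695, adjusted p 4.42e-09 against cortex).

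Cox5a (1375127_at), a subunit of the complex IV core assembly, was lowest in cortex. Its control values ran from 7.23 through 7.55 to 7.86 in brainstem, from 7.11 through 7.83 to 8.06 in hippocampus and from 6.55 through 6.84 to 7.10 in cortex. Hippocampus exceeded cortex by 0.88 (SE 0.11, adjusted p 9.07e-10) with no overlap. The difference was 0.52 in levetiracetam rats and 0.19 in phenytoin rats, where it was not called (adjusted p 0.148).

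Cox6a2 (1367782_at), the isoform of Cox6a1 known from heart and skeletal muscle, gave the largest regional differences of all members. Its control values ran from 5.53 through 5.79 to 6.76 in brainstem, from 4.15 through 4.58 to 5.79 in hippocampus and from 6.43 through 6.67 to 6.93 in cortex. Hippocampus minus cortex was -2.06 with no overlap (SE 0.24, adjusted p 1.13e-10), while its highest array overlapped the brainstem range. Brainstem exceeded hippocampus by 1.35 (SE 0.231, adjusted p 1.03e-06) and brainstem minus cortex was -0.71 (SE 0.24, adjusted p 0.00884). The difference between hippocampus and cortex was -2.42 in levetiracetam and -2.01 in phenytoin rats. It is a dim probe set, at the 9.5th percentile of mean signal among those tested. Its common isoform Cox6a1 differed by 0.07 between brainstem and hippocampus (adjusted p 0.365) and by 0.00 between hippocampus and cortex (adjusted p 0.973), the second of which had the opposite sign on the values as deposited, at -0.11.

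Other isoform pairs also differed in pattern. Cox7a1 was called higher in brainstem than in cortex, at 0.84 (SE 0.174, adjusted p 3.54e-05), whereas its relative Cox7a2l, which takes part in joining complexes into supercomplexes, was not, at -0.15 (adjusted p 0.053). Control brainstem arrays of Cox7a1 ran from 6.46 through 6.57 to 7.02 and control cortex arrays from 4.89 through 5.97 to 6.06, without overlap. Ndufa4 was lower in brainstem than in cortex by -0.16 (adjusted p 0.00443), opposite to Ndufa4l2. Cox4i1, the common isoform of Cox4, was lower in hippocampus than in cortex by -0.26 (adjusted p 0.00189). Cox8a differed by -0.15 between brainstem and cortex (adjusted p 0.00317), and Cox6b1 was 0.25 higher in brainstem than in hippocampus (adjusted p 0.000369). Atp5mc3, for the proton-carrying c ring of the ATP synthase, was 0.20 higher in brainstem than in hippocampus (adjusted p 0.000121) and 0.26 higher than in cortex (adjusted p 2.69e-06).

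**Figure D3:**
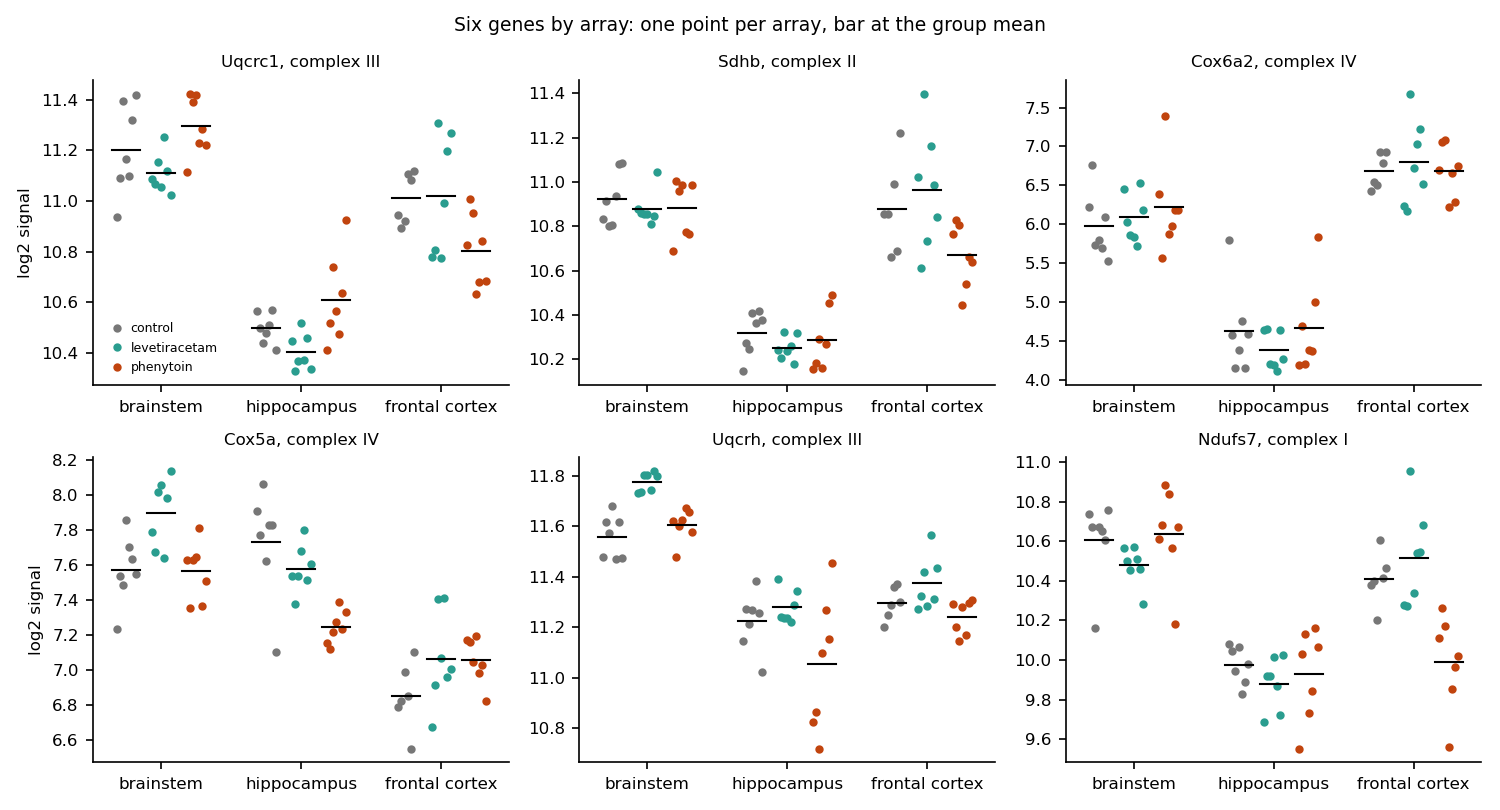
Log2 signal (vertical axes, not starting at 0) of Uqcrc1, Sdhb, Cox6a2, Cox5a, Uqcrh and Ndufs7 by region (horizontal axes) and treatment (colours); each point is 1 array and each bar the group mean. Hippocampus is low for Uqcrc1, Sdhb and Cox6a2, cortex is low for Cox5a, levetiracetam brainstem is high for Uqcrh (11.73 to 11.82) and phenytoin cortex is low for Ndufs7 (9.56 to 10.26).

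Other mitochondrial genes are given from lists chosen with earlier results of these data known. Between brainstem and hippocampus of control rats 13 of 15 tested enzymes of the tricarboxylic acid cycle, which supplies NADH and succinate, were called higher in brainstem and 0 lower, with a median of 0.32. Ogdh, a subunit of the oxoglutarate dehydrogenase complex, was 0.79 higher (adjusted p 4.85e-17) and Sucla2, a subunit of succinyl-CoA ligase, 0.56 higher (adjusted p 1.28e-13). Of 20 inner-membrane carriers and related genes 13 were higher and 3 lower, of 42 assembly factors 16 and 6, of 73 mitochondrial ribosomal proteins 26 and 4, and of 10 mitochondrial antioxidant genes 8 and 0. Over all tested probe sets 29.5% were called higher and 26.9% lower in this comparison. Among 25 regulators of mitochondrial biogenesis 6 were higher and 4 lower, so neither share was above that of all probe sets. Those higher included Esrrg, an estrogen-related receptor, at 2.06 (SE 0.117, adjusted p 1.43e-23), and Ppargc1a, the coactivator PGC-1alpha, at 0.41 (SE 0.0806, adjusted p 1.52e-05). The 4 lower ones are not named here. Between hippocampus and cortex 0 cycle enzymes were higher and 8 of 15 lower in hippocampus, and 4 ribosomal proteins were higher and 30 of 73 lower. The shares of all probe sets there were 21.6% higher and 24.4% lower.

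Cell-type markers differed between the regions as well. In control rats the summed intensity of 9 oligodendrocyte markers was 22244 to 29227 in brainstem, 13904 to 16591 in hippocampus and 10915 to 18339 in cortex, and 9 of 9 were called higher in brainstem than in hippocampus. The sum of 15 neuronal markers was 37039 to 42466 in brainstem, 31876 to 33780 in hippocampus and 29674 to 36424 in cortex, with 6 of 15 higher and 4 lower in brainstem than in hippocampus. For 7 interneuron markers (Pvalb, Gad1, Gad2, Kcnc1, Kcnc2, Tac1 and Sst) it was 4677 to 5713, 3486 to 4442 and 4331 to 6733. Of these markers 0 of 7 were called higher and 5 lower in hippocampus than in cortex. The 9 astrocyte markers summed to 28073 to 36473, 23870 to 28945 and 20646 to 28050. The 5 measured markers of endothelium and blood summed to 3085 to 5332, 1529 to 2435 and 2843 to 4408, with 4 of 5 called higher and 0 lower in brainstem than in hippocampus. Over all tested probe sets 29.5% were called higher and 26.9% lower in brainstem than in hippocampus. Between hippocampus and cortex 21.6% were higher and 24.4% lower in hippocampus. In control rats 0 markers of these 5 marker lists were under 50 on every array of a region. Their part in the regional differences of the members was not tested.

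Levetiracetam rats differed from control rats in brainstem by 9 members called higher and 0 lower of 77, against 5.17% and 4.07% of all probe sets. The member median was 0.02, and 40 of 77 genes were above 0. The 9 genes were Ndufa2, Ndufa6, Ndufb1, Ndufb8 and Ndufv2 of complex I, Sdhd of complex II, Uqcrh of complex III, Cox5a of complex IV and Atp5if1, which codes for the inhibitor of the ATP synthase.

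Uqcrh (1371415_at), the hinge protein of complex III next to cytochrome c1, ran from 11.73 through 11.80 to 11.82 in levetiracetam brainstem and from 11.47 through 11.57 to 11.68 in control brainstem. It was the only member whose groups did not overlap, as for 1.67% of all probe sets in that direction (1.15% in the other), with a difference of 0.22 (SE 0.0401, adjusted p 0.00156, 1.16-fold). Phenytoin rats ran from 11.48 through 11.62 to 11.67 and differed from levetiracetam rats by -0.17 (SE 0.0401, adjusted p 0.0198). Atp5if1 (1369588_a_at) ran from 10.23 through 10.34 to 10.39 under levetiracetam and from 9.88 through 10.07 to 10.27 in control rats, overlapping slightly, with a difference of 0.24 (SE 0.0504, adjusted p 0.00404).

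Ndufb8 (1375628_at), an accessory subunit of complex I, had the largest difference, 0.38 (SE 0.102, adjusted p 0.0191), with levetiracetam arrays from 8.14 through 8.51 to 8.58 and control arrays from 7.87 through 7.93 to 8.43. These groups overlapped. Ndufv2, a core subunit of the NADH-oxidising module, was 0.22 higher (SE 0.0572, adjusted p 0.0168), at 11.29 through 11.38 to 11.48 against 10.95 through 11.17 to 11.33. Of the others, Cox5a was 0.33 higher (adjusted p 0.0335), Sdhd 0.30 (adjusted p 0.0116), Ndufb1 0.30 (adjusted p 0.00406), Ndufa2 0.21 (adjusted p 0.0156) and Ndufa6 0.17 (adjusted p 0.0488). Without levetiracetam rats 1 and 2, whose labels name both drugs, 6 of the 77 were called, and Ndufa6, Ndufb8 and Ndufv2 were not (adjusted p 0.0965, 0.0874 and 0.0502). In a fit of all 9 groups 2 were called.

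Among the related lists in the same comparison 6 of 42 assembly factors and 9 of 73 mitochondrial ribosomal proteins were called higher and 0 lower. The shares over all probe sets were 5.17% higher and 4.07% lower. Sdhaf4 and Sdhaf3, assembly factors of complex II, were 0.30 (adjusted p 0.0024) and 0.31 (adjusted p 0.0102) higher, and Ndufaf4, an assembly factor of complex I, 0.35 higher (adjusted p 0.00399). Of the carrier list 0 were higher and 2 of 20 lower, among them the mitochondrial creatine kinase Ckmt1 at -0.30 (adjusted p 0.00408). The spike-in controls of the arrays averaged 9.11 ± 0.13 (SD, n = 7) under levetiracetam and 8.75 ± 0.16 (SD, n = 7) in control rats (adjusted p 0.0157, exact permutation test, two-sided). In phenytoin brainstem they averaged 9.13 ± 0.44 (SD, n = 7; adjusted p 0.0288 against control rats by the same test). Phenytoin brainstem array 1 stood at 10.12, against 8.875 to 9.082 in the others of that group. The summed intensity of neuronal markers was 43344 to 48371 under levetiracetam and 37039 to 42466 in control rats, which did not overlap, with 1 of 15 called higher and 0 lower. That of oligodendrocyte markers was 27992 to 31350 against 22244 to 29227, with 1 of 9 called higher and 3 lower, and that of astrocyte markers 32428 to 37412 against 28073 to 36473, with 0 of 9 higher and 1 lower. The part of labelling or of these cell types in the calls was not tested.

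Phenytoin rats differed from control rats in brainstem by 0 of 77 called members, against 0.0161% of all probe sets, and limma gave an unadjusted p under 0.05 for 11. The smallest p-values belonged to Ndufa2, at 0.23 (SE 0.0547, adjusted p 0.195), and Ndufa6, at 0.18 (SE 0.0554, adjusted p 0.411), both accessory genes of complex I that are also among the levetiracetam calls. For 0 members did phenytoin and control brainstem separate without overlap (0.0591% of all probe sets upward and 0.0483% downward). The comparisons of both drugs use the same control arrays. Phenytoin and levetiracetam brainstem differed directly in 4 members, against 1.22% of all probe sets higher and 1.76% lower under phenytoin. Ndufv2 was lower by -0.26 (SE 0.0572, adjusted p 0.016) and Ndufb8 by -0.43 (SE 0.102, adjusted p 0.0213), beside Uqcrh above. Ndufb11, an accessory subunit, was higher by 0.26 (SE 0.0718, adjusted p 0.0482). The groups of Ndufv2 and Uqcrh did not overlap, as for 0.558% of all probe sets in that direction, and 0 members were separated upward (0.381%). On the values as deposited 0 were called higher and 3 lower. Leaving out phenytoin rat 2 or levetiracetam rat 3 left 2 calls, leaving out phenytoin rat 6 gave 9, and without levetiracetam rats 1 and 2 only Uqcrh was called. In the fit of all 9 groups 0 were called, with adjusted p 0.0914 for Ndufb8, 0.123 for Ndufv2, 0.174 for Uqcrh and 0.323 for Ndufb11.

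In hippocampus 4 members of 75 were called lower and 0 higher in phenytoin than in control rats, against 4.69% of all probe sets lower and 4.55% higher, so the share called lower was near the background. The member median was -0.05, and 53 of 75 genes were below 0. No member separated the groups without overlap (0.65% of all probe sets upward and 0.558% downward). Cox5a (1375127_at) ran from 7.12 through 7.24 to 7.39 in phenytoin rats and from 7.11 through 7.83 to 8.06 in control rats. Control array 7, at 7.11, lay as low as the phenytoin arrays, and the other 6 control arrays lay above all of them. The difference was -0.49 (SE 0.105, adjusted p 0.00782, 0.714-fold).

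Sdhd (1388294_at) ran from 9.66 through 9.87 to 10.14 under phenytoin and from 10 through 10.15 to 10.26 in control rats, a difference of -0.29 (SE 0.0694, adjusted p 0.0124) with overlap. Ndufb8 was lower by -0.38 (SE 0.0931, adjusted p 0.0141), at 7.13 through 7.39 to 7.72 against 7.58 through 7.86 to 7.99. Uqcrc2, a core subunit of complex III, was lower by -0.22 (SE 0.0551, adjusted p 0.0146), at 10.49 through 10.73 to 10.90 against 10.88 through 10.95 to 10.99. Without phenytoin hippocampus 7, the array with striatal markers, 10 members were called lower, the difference of Cox5a was -0.50 (adjusted p 0.0052), and the member median was -0.07. Without phenytoin hippocampus 5, 7 were called. Shares of all probe sets called without these arrays are not given here. The Gapdh signal at the 3' end relative to the 5' end, a measure of RNA integrity, was on the log2 scale 0.39 ± 0.10 (SD, n = 7) in phenytoin and 0.24 ± 0.12 (SD, n = 7) in control hippocampus (adjusted p 0.102, exact permutation test, two-sided). With this ratio as a covariate 0 members were called, and the share of all probe sets called is not given here. The differences were then -0.51 for Cox5a, -0.35 for Sdhd, -0.33 for Ndufb8 and -0.14 for Uqcrc2. Control hippocampus 1 had a ratio of 0.038, against 0.199 to 0.419 in the other control arrays. Neuronal markers summed to 26414 to 31929 in phenytoin and 31876 to 33780 in control hippocampus, the lowest being phenytoin array 7, with 4 of 15 called higher and 0 lower. Of the 9 oligodendrocyte markers 2 were called higher and 0 lower. Their part in the result was not tested.

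**Figure D4:**
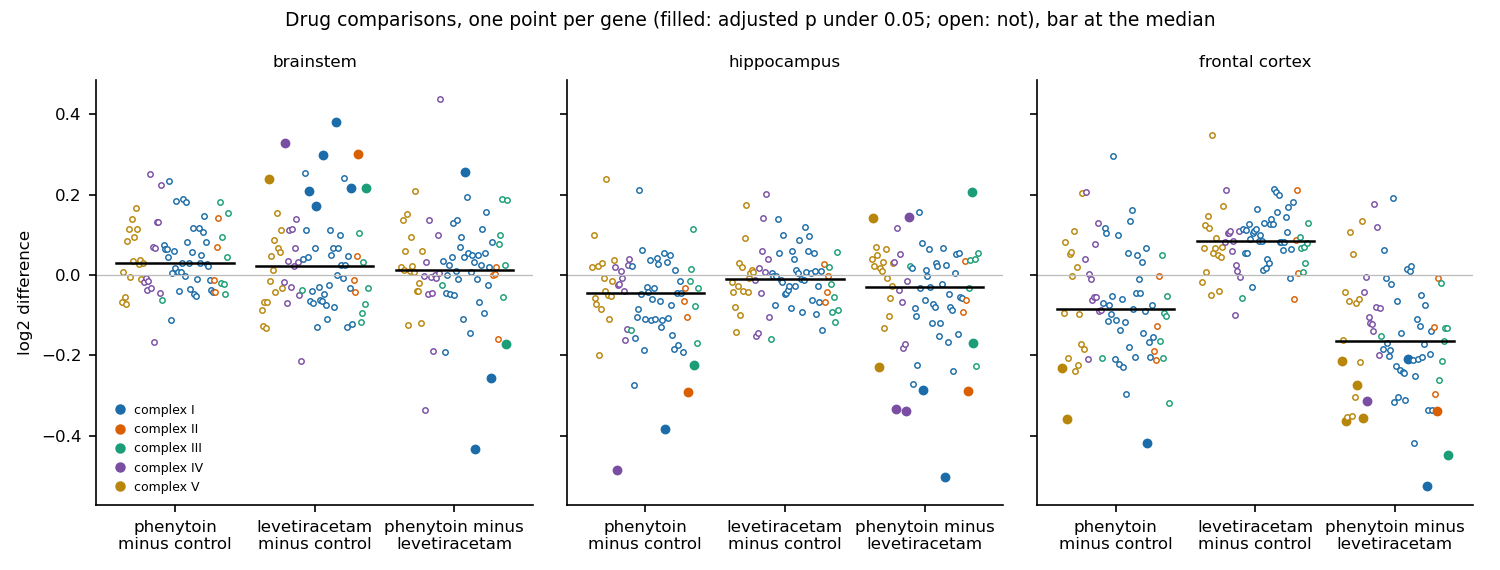
Log2 difference of each member gene (vertical axis) in the 3 drug comparisons (horizontal axis) of each region; filled points passed the test, open points did not, colours are complexes and bars are medians. Filled points lie above 0 for levetiracetam against control in brainstem (9 of 77 genes, against 5.17% of all probe sets called higher). They lie below 0 for phenytoin against control in hippocampus (4 of 75, against 4.69% called lower) and frontal cortex (3 of 76, against 1.28% called lower). Between the drugs they lie on both sides of 0 in brainstem and hippocampus and below 0 in frontal cortex.

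Levetiracetam and control hippocampus differed in 0 of 75 members, as in 0% of all probe sets, and limma gave an unadjusted p under 0.05 for 6. The smallest were Cyc1, cytochrome c1, at -0.16 (SE 0.0489, adjusted p 0.341), and Cox5b, a complex IV subunit, at -0.14 (SE 0.0536, adjusted p 0.4). The groups overlapped for every tested member (0.274% of all probe sets were separated upward and 0.242% downward). Against levetiracetam hippocampus, phenytoin hippocampus had 7 members called lower and 3 higher, against 8.76% and 8.01% of all probe sets. Ndufb8 was the farthest apart at -0.50 (SE 0.0931, adjusted p 0.00109), at 7.13 through 7.39 to 7.72 against 7.79 through 7.98 to 8.04. It was the only member whose groups did not overlap, as for 1.85% of all probe sets in that direction (1.81% in the other). Cox7b, a small complex IV subunit, was lower by -0.34 (adjusted p 0.00701), Cox5a by -0.33 (adjusted p 0.0318), Ndufa5 by -0.29 (adjusted p 0.00816), Sdhd by -0.29 (adjusted p 0.00639), Atp5if1 by -0.23 (adjusted p 0.0278) and Uqcrc2 by -0.17 (adjusted p 0.037). Uqcrc1 was higher by 0.21 (adjusted p 0.0306), Cox8a by 0.14 (adjusted p 0.03) and Atp5f1b, the catalytic beta subunit of the ATP synthase, by 0.14 (adjusted p 0.0337). On the values as deposited 9 were called lower and 0 higher, with Cox8a at 0.03 and Atp5f1b at 0.02. Leaving out phenytoin array 3 left 4 calls and phenytoin array 2 or levetiracetam array 7 left 6, while 14 were called without phenytoin array 7, where Uqcrc2 was not (-0.13, adjusted p 0.0516). The 3' to 5' Gapdh log2 ratio was 0.39 ± 0.10 (SD, n = 7) in phenytoin and 0.27 ± 0.03 (SD, n = 7) in levetiracetam hippocampus (adjusted p 0.0839, exact permutation test, two-sided), and with it as a covariate 2 members were called, Ndufb8 (adjusted p 0.0182) and Sdhd (adjusted p 0.0169). Among those no longer called, the difference was then -0.35 for Cox5a, -0.27 for Cox7b, -0.25 for Atp5if1, -0.21 for Ndufa5 and -0.10 for Uqcrc2. It was 0.17 for Atp5f1b, 0.13 for Uqcrc1 and 0.10 for Cox8a.

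In frontal cortex phenytoin rats had 3 members called lower and 0 higher than control rats, against 1.28% of all probe sets lower and 5.11% higher. The member median was -0.08, and 54 of 76 genes were below 0. All tested members overlapped between the groups, while 2.49% of all probe sets were separated upward and 0.8% downward. Ndufs7 (1371912_at), a core subunit of complex I that holds an iron-sulfur cluster near the quinone site, ran from 9.56 through 10.02 to 10.26 in phenytoin and from 10.20 through 10.41 to 10.61 in control cortex. The ranges overlapped at their edges, and the difference was -0.42 (SE 0.115, adjusted p 0.0284, 0.748-fold). Atp5f1d (1370278_at), the delta subunit in the central stalk of the ATP synthase, ran from 10.38 through 10.52 to 10.76 against 10.73 through 10.92 to 11.08, a difference of -0.36 (SE 0.0955, adjusted p 0.0234). Atp5f1a, the alpha subunit, was lower by -0.23 (SE 0.0666, adjusted p 0.0367), at 11.18 through 11.36 to 11.47 against 11.43 through 11.57 to 11.66.

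These 3 calls depended on single arrays. Without phenytoin cortex 4 or 6, or without control cortex 5 or 6, 0 were called, and without phenytoin cortex 5 or control cortex 1 or 2, 1 was called. With the fit of all 9 groups 10 were called lower, a count given without the share of all probe sets called in that fit. The 3' to 5' beta-actin log2 ratio was 1.58 ± 0.14 (SD, n = 7) in phenytoin and 1.32 ± 0.15 (SD, n = 6) in control cortex (adjusted p 0.0437, exact permutation test, two-sided), and with it as a covariate 3 were called.

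Levetiracetam and control cortex differed in 0 of 76 members, as in 0% of all probe sets, and limma gave an unadjusted p under 0.05 for 0. Members overlapped between these groups in each case, and 0.0376% of all probe sets were separated upward and 0.0591% downward. Of the 76 genes 67 were above 0, with a median of 0.08, which was 0.02 without levetiracetam frontal cortex 3. The smallest p-values belonged to Sdhc, at 0.21 (SE 0.114, adjusted p 0.954), and Atp5me, the e subunit of the ATP synthase, at 0.35 (SE 0.189, adjusted p 0.954). Between the drugs 9 members were lower and 0 higher in phenytoin than in levetiracetam cortex, against 3.71% of all probe sets lower and 7.09% higher, and 66 of 76 genes were below 0 with a median of -0.16. Without levetiracetam frontal cortex 3 the median was -0.10 and 7 were called.

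Ndufs7 was again the farthest apart of the members between the drugs in cortex, at -0.52 (SE 0.11, adjusted p 0.00272), with levetiracetam arrays from 10.27 through 10.54 to 10.96 and no overlap with phenytoin (0.821% of all probe sets in that direction and 3.39% in the other). Uqcrq, a small subunit of complex III, was lower by -0.45 (SE 0.123, adjusted p 0.0193), at 10.15 through 10.49 to 10.77 against 10.58 through 11.02 to 11.48, which overlap. The other called genes were Atp5f1d, at -0.36 (adjusted p 0.0109), Atp5po, of the peripheral stalk, at -0.36 (adjusted p 0.0274), Sdhc, at -0.34 (adjusted p 0.0477), Cox5b, at -0.31 (adjusted p 0.0143), Atp5mpl, a small membrane-domain subunit, at -0.27 (adjusted p 0.0334), Atp5f1a, at -0.21 (adjusted p 0.0319), and Ndufb3, at -0.21 (adjusted p 0.0367). The count was 4 without levetiracetam array 7 or phenytoin array 4 or 6, 5 without levetiracetam array 5 or 6 or phenytoin array 1 or 5, and 16 without levetiracetam array 1. Without levetiracetam frontal cortex 3, Sdhc (adjusted p 0.0871), Atp5mpl (adjusted p 0.0555) and Atp5po (adjusted p 0.0504) were not called. The 3' to 5' beta-actin log2 ratio was 1.58 ± 0.14 (SD, n = 7) in phenytoin and 1.27 ± 0.19 (SD, n = 7) in levetiracetam cortex (adjusted p 0.0437, exact permutation test, two-sided). With it as a covariate 14 were called, and in the fit of all 9 groups 29. The shares of all probe sets called under these settings are not given here, so a rise particular to members cannot be read from these counts.

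The effect of phenytoin differed between the regions for 6 of 76 genes in an F test over all 9 groups, against 12.2% of all probe sets. Without the low-weight arrays 13 genes were called (15.1% of all probe sets), and with array weights 24 (22.8%). For Cox5a (adjusted p 0.00243) the phenytoin difference in hippocampus lay -0.48 below that in brainstem and the cortical difference 0.21 above it. For Sdhd (adjusted p 0.00434) the hippocampal difference lay -0.43 and the cortical one -0.15 below that in brainstem. For Atp5f1a (adjusted p 0.0266), Atp5f1d (adjusted p 0.04), Ndufb3 (adjusted p 0.0402) and Ndufs7 (adjusted p 0.0483) the cortical difference was the lowest, by -0.16, -0.29, -0.21 and -0.45 against brainstem. The effect of levetiracetam differed for 0 of 76 genes, against 0.0644% of all probe sets, and Sdhd had the smallest adjusted p, 0.287.

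Of the 8 genes with more than 1 probe set, Atp5me and Atp5po had only 1 bright enough to test, so their sets could not be compared. Among the others, Uqcrc2, Sdhd, Atp5if1 and Ndufv3 had tested sets that disagreed. Uqcrc2 was lower in hippocampus than in cortex of control rats by -0.30 (adjusted p 3.39e-06) on its brighter set, 1373362_at, and higher by 0.73 (SE 0.196, adjusted p 0.0016) on the dimmer 1382280_at. On the dimmer set it was lower under phenytoin in hippocampus by -0.80 (SE 0.137, adjusted p 0.00237), at 8.45 through 8.71 to 9.22 against 8.96 through 9.55 to 10.18, and higher under phenytoin in cortex by 0.82 (SE 0.227, adjusted p 0.0308), at 8.62 through 9.80 to 10.12 against 8.44 through 8.73 to 9.50. On the brighter set the cortical difference was -0.09 (adjusted p 0.439). A dim set of Atp5if1, 1371229_at, was also lower under phenytoin in hippocampus, by -0.68 (SE 0.174, adjusted p 0.0179).

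Sdhd was 0.30 higher under levetiracetam in brainstem on its brighter set and differed by -0.02 (adjusted p 0.901) on the dimmer 1371296_at, while in control rats the dimmer set was 0.26 higher in brainstem than in hippocampus (adjusted p 0.00583) and the brighter was not. Under phenytoin in cortex the dimmer set was lower by -0.32 (SE 0.0862, adjusted p 0.0247), at 8.87 through 8.95 to 9.17 against 9.16 through 9.27 to 9.46, and the brighter differed by -0.00 (adjusted p 0.987). For Atp5if1 the brighter set was -0.19 lower in hippocampus than in cortex (adjusted p 0.0613) and the dim set 1371229_at 0.54 higher (adjusted p 0.00639). For Ndufv3, an accessory subunit of complex I, the sets differed in levetiracetam rats, at -0.30 (adjusted p 0.00728) and 0.34 (adjusted p 0.0212) between brainstem and cortex. Which transcripts each set detects is not given in the sources used here.

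**Figure D5:**
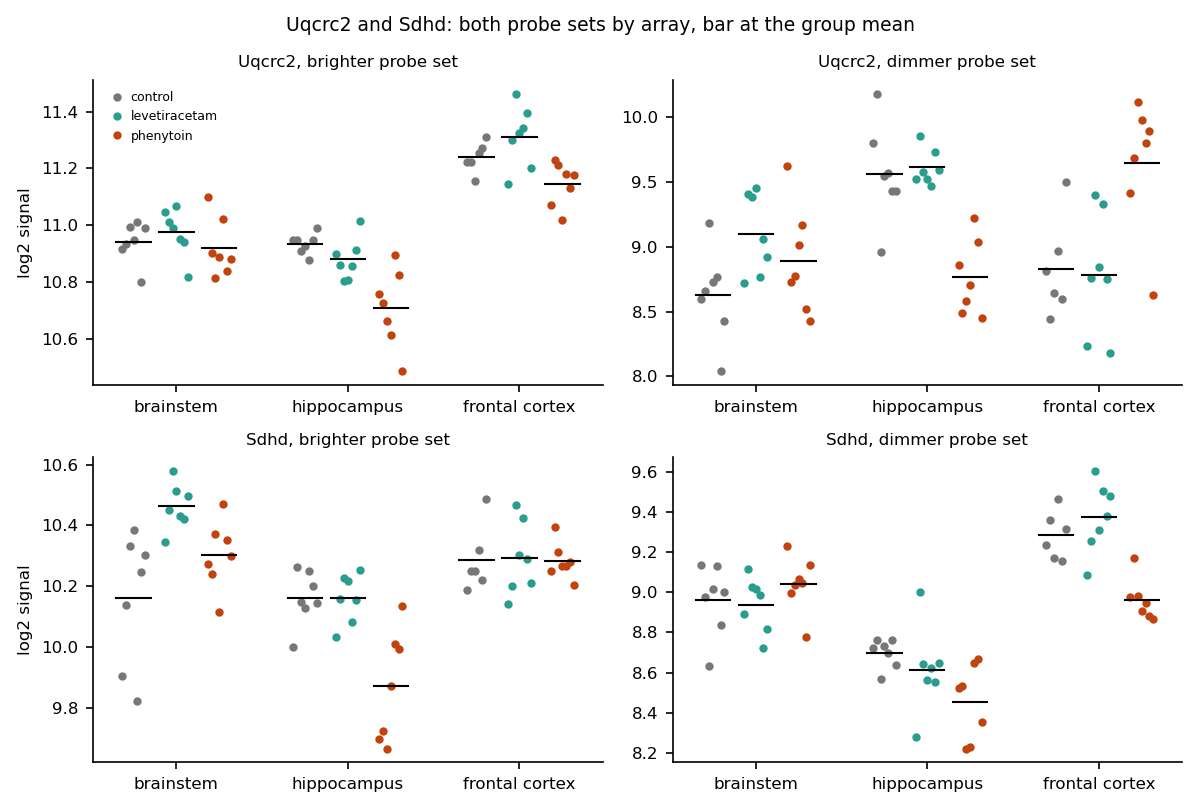
Log2 signal (vertical axes, not starting at 0) of both tested probe sets of Uqcrc2 and Sdhd by region and treatment; each point is 1 array and each bar the group mean. The dimmer set of Uqcrc2 is high in control and levetiracetam hippocampus and in phenytoin cortex, a pattern the brighter set does not share, and the sets of Sdhd differ in brainstem.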

How the data were processed

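The deposited values are linear intensity per probe set, scaled by the authors so that the 2% trimmed mean of each array is 150.04 to 150.06, as tested on the values (171.9 on the array that lacks 4799 probe sets). What software made them is not given in the sources used here. Values were quantile normalized over the 26300 probe sets complete on all arrays after log2(deposited intensity + 16), and 57 control probe sets and the dimmest 40% were left out, leaving 18625. Groups were compared with limma 3.58.1 (R 4.3.3; lmFit and eBayes with trend): the 3 treatments within each region, the regions and the F tests in a fit of all 9 groups. P-values were adjusted over all tested probe sets, and the steps were tested on simulated data. Array medians of the deposited values ran from 34.05 to 61.79, and precision is limited by how many arrays a group has. Within groups 0 pairs of arrays held identical values, and the highest correlation was 0.985.

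Genes were named by probe annotation (20826 probe sets with 1 symbol, 436 with several, 9780 with none). The members and lists were chosen with earlier results of these data known. The text names members called in a drug comparison (or the 2 with the smallest p where 0 were called), the 4 largest called differences each way between regions of control rats, up to 4 per F test, the isoform families and complex II, genes whose probe sets disagree, and up to 4 genes of each other list by smallest p. Members named beside a count of 5 or fewer were chosen after their values were seen. Quality ratios were compared by exact permutation tests, adjusted over 9 comparisons. The alternatives were other values, filters, array weights, quality covariates, thresholds, probe set rules, fits and arrays left out.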

Additional observations from a re-analysis of the deposited data

Results flagged for a closer look

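For 106 combinations of a named gene and a group, the array farthest from the rest of its group was compared with Dixon's critical value, and 6 exceeded it. Chance flags about 1 in 20 groups. Ndufb8 was lowest in levetiracetam brainstem 7, at 8.14, against 8.43 to 8.58 in the others. Ndufb11 was lowest in levetiracetam brainstem 6, at 10.25. Ndufa6 was highest in phenytoin brainstem 3, at 10.67, with the nearest array at 10.56. Cox7a1 was lowest in control frontal cortex 1, at 4.89, against 5.87 to 6.06. Cox6a2 was highest in control hippocampus 1, at 5.79, against 4.15 to 4.75. Ndufb3 was highest in phenytoin frontal cortex 7, at 11.21, against 10.89 to 11.02.

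The effect of phenytoin differed between the regions, in the F test of limma with Benjamini-Hochberg adjustment, for 9 of 82 tested member probe sets. Over all tested probe sets 12.2% were called, so the share of members was near the background. The adjusted p was 4.45e-05 for the dimmer set of Uqcrc2, where the phenytoin difference in hippocampus lay -1.06 below and that in cortex 0.55 above the one in brainstem. It was 0.00243 for Cox5a, 0.00434 for the brighter and 0.0325 for the dimmer set of Sdhd, 0.00835 for the dim set of Atp5if1, 0.0266 for Atp5f1a, 0.04 for Atp5f1d, 0.0402 for Ndufb3 and 0.0483 for Ndufs7.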

How the results depend on the processing

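Summed over both directions, the region counts of control rats stayed within 1.5 times their value under every alternative run, but the split between brainstem and cortex moved from 23 higher and 13 lower to 9 and 19 on the values as deposited and to 39 and 6 in phenytoin rats. Counts in treated rats without the arrays of low weight were added after seeing the data. Within 1.5 times were also the drug counts not named here. On the values as deposited 17 members were called for levetiracetam against control in brainstem and 8 for phenytoin against control in hippocampus. With array weights 14 were called for levetiracetam and 9 for phenytoin against levetiracetam in brainstem, 16 for phenytoin against control and 21 against levetiracetam in hippocampus, 9 for phenytoin against control in cortex, and 24 by the phenytoin F test. With the Gapdh ratio as a covariate these were 0 for phenytoin against control and 2 against levetiracetam in hippocampus, and 2 by the F test. With the actin ratio 14 were called between the drugs in cortex. At an adjusted p of 0.1 the counts were 16 for levetiracetam and 8 between the drugs in brainstem, 10 for phenytoin in hippocampus, 18 between the drugs in cortex and 10 by the F test. Without the arrays of low weight they were 10 for phenytoin in hippocampus and 13 by the F test, which called 2 with no filter on dim probe sets. Between the drugs in brainstem 1 was called without levetiracetam rats 1 and 2. In a fit of all 9 groups 2 were called for levetiracetam and 0 between the drugs in brainstem, and 10 for phenytoin against control and 29 against levetiracetam in cortex. For most alternatives, here and above, the share of all probe sets called is not given. A change in the member count therefore cannot be told from a change in all probe sets. The cause of these changes was not tested.

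A further alternative used the numbers of the rats. In the fit of all 9 groups, samples of 1 treatment with the same number formed a correlated block. Then 51 members were called between brainstem and hippocampus, 37 between brainstem and cortex, 40 between hippocampus and cortex and 9 by the F test. Within regions the number was instead added as a factor, which groups rats of different treatments. There 6 members were called between the drugs in hippocampus and 0 for phenytoin against control in cortex, and no other count moved by over 1.5 times. Samples of 1 treatment with the same number in different regions had a mean correlation of 0.12 of their deviations (61 pairs, 36 over 0.1) against -0.02 for other numbers (366 pairs, 13 over 0.1), a hint from the data and not from the design. As the labels name no shared rat and not every pair was over 0.1, the numbers were not taken as pairing. Across treatments of 1 region the mean was -0.015. Leaving out 1 array at a time gave 7 to 11 calls for levetiracetam and 2 to 9 between the drugs in brainstem, 4 to 10 for phenytoin and 4 to 14 between the drugs in hippocampus, and 0 to 3 for phenytoin and 4 to 16 between the drugs in cortex. It gave 0 for the other comparisons within a region.

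Among named genes 1177 values kept their direction and side of the threshold under other settings, 103 lost the call, 35 gained it and 28 changed sign. On the values as deposited the sign changed, between brainstem and hippocampus, for Sdhd (0.0011) and Cox6a1 (-0.0048). It changed between brainstem and cortex for Sdhb (-0.069), Sdhc (-0.043), Cox6a1 (-0.11) and Cox6b1 (-0.20), and between hippocampus and cortex for Cox6a1 (-0.11) and Atp5mc3 (-0.034). It changed with array weights for Sdhd between brainstem and hippocampus (0.0053), and with the Gapdh ratio for Sdhb between brainstem and cortex (-0.011) and Cox6a1 between hippocampus and cortex (-0.0076). With the mean of a gene's probe sets, Sdhd between brainstem and hippocampus was 0.13, and Atp5if1 0.0033 between brainstem and cortex and 0.18 between hippocampus and cortex. In phenytoin rats Sdhd (0.43) and Atp5if1 (0.22) changed sign between brainstem and hippocampus, Sdhd (0.021) between brainstem and cortex, and Cox6a1 (-0.021), Cox7a1 (-0.021), Cox8a (0.045) and Atp5mc3 (-0.082) between hippocampus and cortex. In levetiracetam rats Sdhd (0.30) and Atp5if1 (0.12) did so between brainstem and hippocampus, Sdhb (-0.086), Sdhc (-0.10), Sdhd (0.17) and Cox6b1 (-0.065) between brainstem and cortex, and Cox6a1 (-0.086) between hippocampus and cortex.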
